A study of Sus scrofa with 20 samples.

Results

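F-box protein genes encode the substrate-picking subunits of SCF ubiquitin ligases, and this section describes their mRNA levels in the hippocampus of high-reactive (HR) and low-reactive (LR) pigs. The members were all genes whose array symbol reads FBXL, FBXO or FBXW followed by a number. Of 52 such genes on the array, with 112 probe sets between them, 44 had at least 1 probe set at or above the median level of the array, which was 5.53 on the log2 scale, and each was described by its brightest probe set. They comprised 13 FBXL, 25 FBXO and 6 FBXW genes, among 10313 named genes and 23861 probe sets above that level. FBXL8 lay just inside the level, with a mean of 5.73 over the 20 arrays, and FBXL17 just outside it, with 5.12.

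An SCF ligase holds its target on an F-box protein, which docks through its F-box to SKP1 and so to the cullin CUL1, while the RING protein RBX1 brings the ubiquitin-charged enzyme. The F-box protein decides which protein is marked, often after that protein has been phosphorylated, and the ligase switches on when the small protein NEDD8 is attached to the cullin. FBXL proteins bind targets through leucine-rich repeats, FBXW proteins through WD40 repeats, and FBXO proteins through other domains. In neurons such ligases are known to set the amounts of synaptic and growth-control proteins.

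The 20 samples were total RNA of hippocampus from German Landrace pigs that the labels call adult and that, by the study's methods, were slaughtered at some months of age, 10 of a high-reactive (HR) and 10 of a low-reactive (LR) coping pattern, each on 1 Affymetrix porcine Snowball array. The pigs had been chosen both by backtest scores, the backtest being a test that restrains young piglets on their backs, and by their haplotype in a region of chromosome 12 tied to coping behavior, so behavior and haplotype cannot be told apart here. No pig was treated. The sources used here do not give sex, litter, sampling day or array batch. Of 10 listed neuron markers 9 lay above the level, 7 higher and 2 lower in HR pigs with a median difference of 0.15, beside 44.4% of the 10313 named genes higher. Of these, 2, both higher, had an unadjusted p under 0.05 (limma), as 10.5% of the named genes did in either direction. Their mean ran between 9.82 and 10.43 in HR and between 9.70 and 10.255 in LR pigs. Of 9 markers of pyramidal and dentate granule cells 8 lay above the level, 4 higher and 4 lower with a median difference of 0.02 and none called. Of 7 interneuron markers above the level 5 were lower in HR pigs, with a median difference of -0.12. PVALB was the 1 called (limma, -0.28, p = 0.0138), beside 3.35% of the named genes called lower. In the lists for other cell types the called markers were LUM of fibroblasts at 0.45 (limma, p = 0.00894), CCDC39 of ependyma at 0.44 (p = 0.0277) and GJA1 of astrocytes at 0.30 (p = 0.0475). Each was the 1 called in its list, beside 7.1% of the named genes called higher. The astrocyte list had 3 genes higher and 4 lower, with a median difference of -0.03. The ependyma list had 2 higher and 1 lower (median 0.07), and the list of meninges and fibroblasts 5 higher and 1 lower (median 0.06). In such bulk tissue fewer cells of a type and less RNA per cell cannot be told apart.

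The arrays were alike in median, between 5.48 and 5.57, but varied in other measures, of which only the first given here differed between the groups after adjustment. The number that follows the group letters in each sample's title, whose meaning is not given, averaged 2863 ± 109 in HR and 2601 ± 225 in LR pigs (SD, n = 10 each, two-sided permutation test, p = 0.00086, adjusted over 4 array measures 0.00344). The mean of 24 background control probe sets, those with 18 or more G and C bases, was 7.31 ± 0.20 in HR and 7.50 ± 0.20 in LR pigs (p = 0.0484 by the same test, adjusted 0.0968). Of 9 choroid plexus markers, 5 passed the level, and their mean ran between 6.47 and 7.96 in HR and between 6.40 and 7.76 in LR pigs (p = 0.407 by the same test, adjusted 0.407), with TTR at 10.33 in HR and 9.89 in LR pigs. The fourth measure, the first principal component of the probe sets above the level, had p = 0.215 by the same test (adjusted 0.287). The part of these measures in the results below was not tested beyond the fits that carry them as a covariate.

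No F-box gene passed the test after adjustment over all probe sets above the level (limma, smallest adjusted p = 0.283), and neither did any of the 23861 probe sets in that adjustment. At an unadjusted p under 0.05, 6 of the 44 genes were called, or 13.6%, beside 11.5% of all 23861 probe sets and 10.5% of the brightest probe sets of the 10313 named genes. FBXW11, FBXL20, FBXO39 and FBXO4 were higher in HR pigs, a direction in which 7.78% of all probe sets and 7.1% of the named genes were called. FBXO16 and FBXO24 were lower, a direction called for 3.74% of all probe sets and 3.35% of the named genes. The share called was near that of the whole array, and an exact Wilcoxon rank sum test called the same 6 genes, with a smallest adjusted p of 0.346. With limma's array weights 11 genes were called and FBXL20, FBXW11 and FBXO4 passed after adjustment (smallest adjusted p = 0.0216). Without HR replicate 1 the count was 10 and FBXW11 passed (limma, adjusted p = 0.0453), and without LR replicate 7 it was 10 with none passing. For these other fits no share over the whole array is at hand, so their counts do not set the F-box genes apart. Across all 44 genes, 22 were higher and 22 lower in HR pigs, and the median difference was -0.0023, beside -0.014 over all probe sets above the level.

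The plain size of the differences was small. They ran from -0.22 for FBXO16 to 0.44 for FBXO4 on the log2 scale, 20 genes differed by less than the standard error of their difference, and in all 44 genes the ranges of HR and LR pigs overlapped. No share over all probe sets is at hand for either count, so neither sets these genes apart. By domain class, 6 FBXL genes were higher and 7 lower, 14 FBXO genes higher and 11 lower, and 2 FBXW genes higher and 4 lower. The spread over the 20 arrays went from an SD of 0.09 for FBXO9 to 0.48 for FBXO30, with a median of 0.21.

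**Figure D1:**
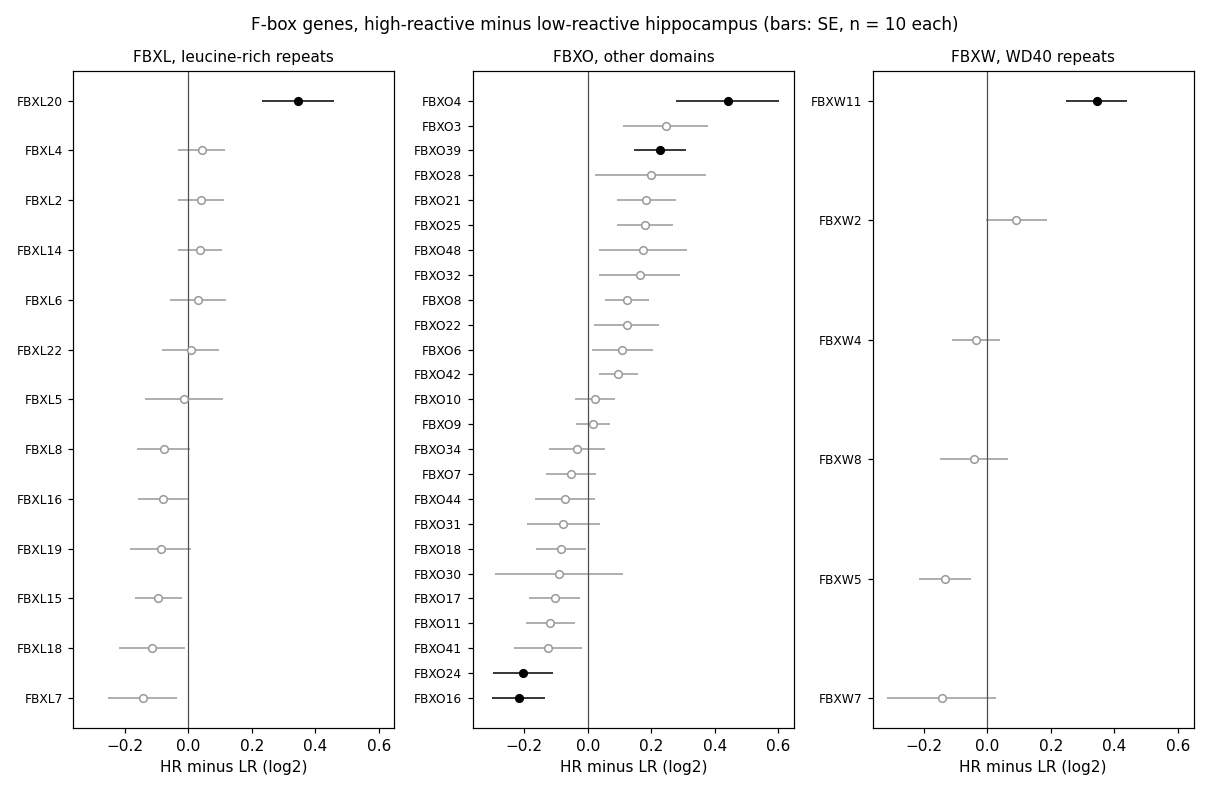
Difference between HR and LR pigs in log2 units for the brightest probe set of each of the 44 F-box genes, in 3 panels by domain class, with bars for the standard error (n = 10 each). Filled points mark the 6 genes with an unadjusted p under 0.05, from FBXO4 at 0.44 to FBXO16 at -0.22, and the open points lie on both sides of 0.

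FBXL20, also called SCRAPPER, binds the release-site protein RIM1 at presynaptic terminals of mice and has it ubiquitinated. Its gene lies on chromosome 12, from 22873395 to 22972677 of the pig assembly Sscrofa 11.1, with MED1 as its left-hand neighbor. The brightest of its 4 probe sets ran between 7.46 and 8.39 in HR pigs, with a median of 8.16, against 7.35 to 8.10 with a median of 7.77 in LR pigs. The ranges overlapped, with 5 HR pigs above every LR pig and 9 of 10 HR pigs above the LR median, and 1 HR array stood well below the other HR arrays. The means were 8.12 ± 0.28 in HR and 7.77 ± 0.25 in LR pigs (SD, n = 10 each), a difference of 0.35 ± 0.11 (SE) or 1.27-fold (limma, p = 0.00598, adjusted p = 0.312).

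The other probe sets of FBXL20 gave the same direction. The second brightest ran between 7.62 and 7.87 in HR pigs, with a median of 7.75, against 7.23 to 7.72 with a median of 7.42 in LR pigs. All 10 HR pigs were above the LR median here, 6 of them above every LR pig, and 8 LR pigs were below every HR pig. The means were 7.74 ± 0.08 in HR and 7.45 ± 0.17 in LR pigs, and the difference of 0.29 ± 0.07 or 1.22-fold had the smallest p of any F-box probe set (limma, p = 0.000249, adjusted p = 0.275).

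The next probe set of FBXL20 ran between 6.91 and 7.60 in HR pigs, with a median of 7.39, against 6.59 to 7.42 with a median of 7.04 in LR pigs. Its ranges overlapped, with 4 HR pigs above every LR pig, and its means of 7.35 ± 0.23 in HR and 7.02 ± 0.24 in LR pigs differed by 0.33 ± 0.10 (limma, p = 0.00401, adjusted p = 0.297). The fourth lay below the level, with means of 4.45 ± 0.25 in HR and 4.23 ± 0.27 in LR pigs, and its difference of 0.22 ± 0.11 did not pass in a fit over all probe sets (limma, p = 0.0600). FBXL20 was also among the hippocampus transcripts that the study picked on these animals, so its direction here is not independent evidence.

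The 3 probe sets above the level were correlated over the 20 pigs, though 1 pair did not pass the test within either group. The brightest correlated with the dimmest of these at r = 0.869 (permutation p = 1e-05, the smallest that the permutations can give, rho = 0.877 with p = 1e-05), with 0.871 after leaving out the 2 arrays farthest from the median. Within groups that r was 0.743 in HR and 0.872 in LR pigs (p = 0.0105 and p = 0.00116 by permutation, n = 10 each). Between the brightest and the second r was 0.77 (p = 0.00011, rho = 0.817 with p = 2e-05, 0.799 without the 2 farthest arrays, 0.763 in HR with p = 0.00725 and 0.657 in LR pigs with p = 0.0416), and between the other two 0.718 (p = 0.00029, rho = 0.747 with p = 0.00025, 0.72 without the 2 farthest arrays, 0.472 in HR with p = 0.169 and 0.575 in LR pigs with p = 0.0826). These were 3 of 6 relations among the 4 probe sets, and over the 20 pigs adjusted p stood at 0.0221 or under for r in all 6. The other 3, with the fourth probe set, did not pass within either group (permutation p between 0.0952 and 0.659). Between the second and the fourth, r went from 0.508 to 0.304 without the 2 farthest arrays.

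**Figure D2:**
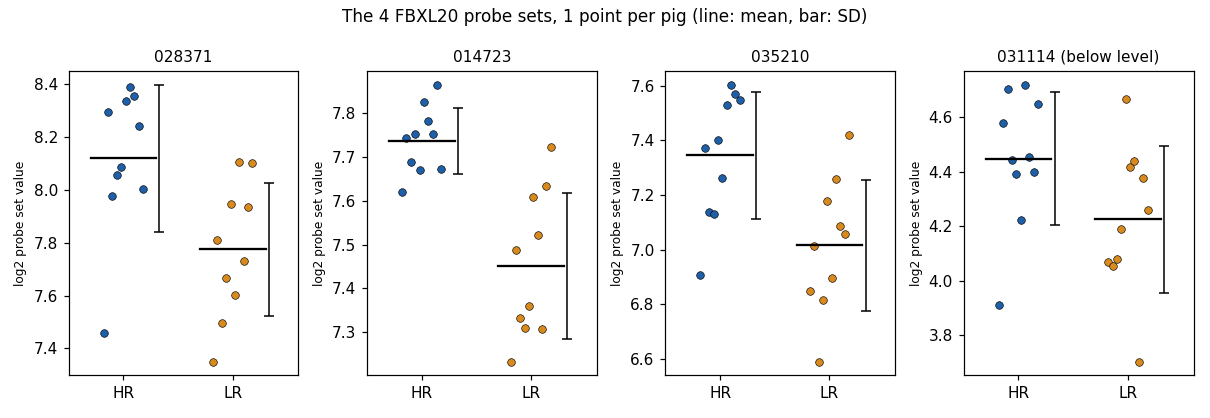
Log2 values of the 4 FBXL20 probe sets, 1 point per pig, with HR to the left of LR in each panel, lines for means and bars for SD (n = 10 each). In the second panel all 10 HR pigs lie between 7.62 and 7.87, and in the first 1 HR pig lies at 7.46 while the next is at 7.98.

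The low HR array of FBXL20 was HR replicate 1, which also had the highest GC-rich background of the HR arrays, 7.73, and the lowest title number among them. Over all 20 arrays the brightest FBXL20 probe set correlated with the GC-rich background at r = -0.88 (permutation p = 1e-05, rho = -0.851 with p = 2e-05, adjusted p for r over 88 relations 0.000126), with -0.917 after leaving out the 2 farthest arrays, -0.796 in HR and -0.91 in LR pigs. With that background as a covariate the difference between HR and LR pigs was 0.13 (limma, p = 0.0957, adjusted p = 0.722), while a fit that carried the title number gave 0.09 (p = 0.443, adjusted p = 0.999). The second probe set kept an unadjusted p under 0.05 in both fits, at 0.21 (p = 0.00208) and 0.18 (p = 0.0265). Over all alternatives the adjusted p of the brightest probe set ranged between 0.0216 and 0.999.

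FBXW11 had the smallest unadjusted p among the brightest probe sets. It encodes beta-TrCP2, which marks beta-catenin, the NF-kappa-B inhibitor and the clock proteins PER1 and PER2 for breakdown, and its gene lies on chromosome 16. Values ran between 8.80 and 9.39 in HR pigs, with a median of 9.34, against 8.52 to 9.28 with a median of 8.94 in LR pigs. The HR values were bunched, with 8 of 10 above every LR pig, and the low one was again HR replicate 1. Means were 9.28 ± 0.18 in HR and 8.93 ± 0.25 in LR pigs, a difference of 0.34 ± 0.10 or 1.27-fold (limma, p = 0.00154, adjusted p = 0.283).

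A second FBXW11 probe set, which followed the first at r = 0.917 over the 20 arrays, differed by 0.27 ± 0.10 (limma, p = 0.0113, adjusted p = 0.339), and one below the level by 0.11 ± 0.13. Like FBXL20, FBXW11 ran against the GC-rich background (r = -0.85, permutation p = 1e-05, rho = -0.842 with p = 2e-05, -0.821 without the 2 farthest arrays, -0.826 in HR and -0.837 in LR pigs). With that background in the fit its difference was 0.17 (limma, p = 0.0175, adjusted p = 0.706), and with the title number 0.11 (p = 0.245, adjusted p = 0.999). BTRC, which encodes the close relative beta-TrCP1, differed by 0.11 ± 0.09 (limma, p = 0.256).

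FBXO39, known in humans for its expression in testis, is the only F-box gene of the array inside the coping region of chromosome 12, taken here as the stretch between the genes METTL16 and ATP1B2, from 48491254 to 52932638 of Sscrofa 11.1. The gene runs from 50635915 to 50723841, and FBXL20 lies outside that stretch. Its 1 probe set ran between 7.70 and 8.05 in HR pigs, with a median of 7.80, against 7.34 to 8.01 with a median of 7.58 in LR pigs. All 10 HR pigs lay above the LR median and 7 LR pigs lay below every HR pig, although the ranges overlapped.

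The FBXO39 means were 7.84 ± 0.12 in HR and 7.61 ± 0.22 in LR pigs, and the difference was 0.23 ± 0.08 or 1.17-fold (limma, p = 0.0103, adjusted p = 0.339). In contrast to FBXL20 and FBXW11 it showed little relation to the GC-rich background over the 20 arrays (r = -0.0715, permutation p = 0.765, rho = -0.137 with p = 0.564, -0.0583 without the 2 farthest arrays), though r was 0.749 in HR pigs (p = 0.0101) and -0.021 in LR pigs (p = 0.955). Its unadjusted p stayed under 0.05 in all of the 30 other settings that were run, with differences between 0.20 and 0.31.

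FBXO4, which takes part in the breakdown of cyclin D1, had the largest difference of the 44 genes. Values ran between 6.19 and 7.37 in HR pigs, with a median of 6.93, against 5.86 to 7.31 with a median of 6.41 in LR pigs, so that the ranges overlapped almost wholly while 9 of 10 HR pigs lay above the LR median. Means were 6.88 ± 0.38 in HR and 6.44 ± 0.40 in LR pigs, a difference of 0.44 ± 0.16 or 1.36-fold (limma, p = 0.0129, adjusted p = 0.342). It was tied to the GC-rich background (r = -0.885, permutation p = 1e-05, rho = -0.869 with p = 1e-05, -0.836 without the 2 farthest arrays, -0.882 in HR and -0.825 in LR pigs), and with that covariate its difference was 0.12 (limma, p = 0.254, adjusted p = 0.792).

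The 2 genes called lower were FBXO16 and FBXO24. FBXO16 ran between 5.81 and 6.44 in HR pigs, with a median of 6.31, against 6.30 to 6.85 with a median of 6.42 in LR pigs. The LR values were bunched apart from LR replicate 8 at 6.85, and 5 HR pigs lay below every LR pig. Its means of 6.23 ± 0.20 in HR and 6.45 ± 0.15 in LR pigs differed by -0.22 ± 0.08 or 0.860-fold (limma, p = 0.0151, adjusted p = 0.350), and the GC-rich background showed no clear relation to it (r = -0.0189, permutation p = 0.937, rho = -0.0977 with p = 0.681, -0.0252 without the 2 farthest arrays, -0.479 in HR and -0.179 in LR pigs). A second FBXO16 probe set far below the level differed by 0.23 ± 0.21, in the other direction.

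FBXO24 is needed for sperm formation in mice. Values ran between 5.78 and 6.55 in HR pigs, with a median of 6.05, against 6.03 to 6.67 with a median of 6.26 in LR pigs. The ranges overlapped, with 5 HR pigs below every LR pig and 8 of 10 below the LR median. Means were 6.10 ± 0.23 in HR and 6.31 ± 0.20 in LR pigs, a difference of -0.20 ± 0.09 (limma, p = 0.0420, adjusted p = 0.417). FBXO24 followed the GC-rich background (r = 0.734, permutation p = 0.0002, rho = 0.674 with p = 0.00165, 0.699 without the 2 farthest arrays, 0.715 in HR and 0.615 in LR pigs), and its difference was -0.07 with either that background (limma, p = 0.416) or the title number (p = 0.545) in the fit. Leaving out any one of HR replicates 2, 4, 5, 6, 7 and 8 or LR replicates 1, 2, 3, 6 and 9 took its unadjusted p past 0.05, with differences between -0.21 and -0.16 in those 11 fits.

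**Figure D3:**
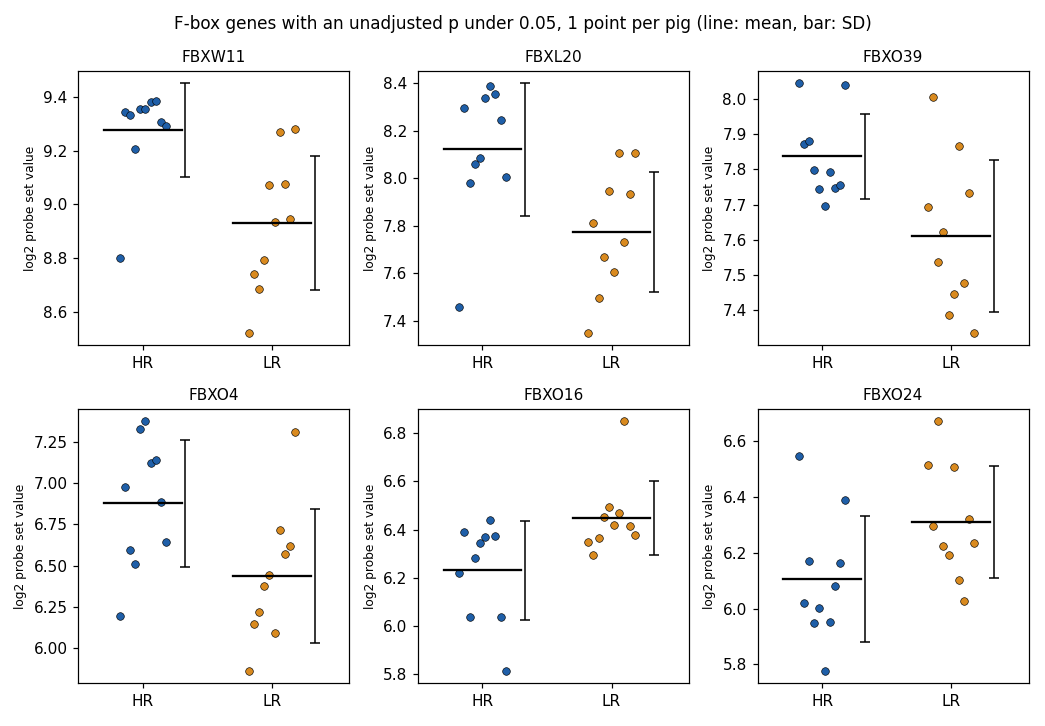
Log2 values of the 6 F-box genes with an unadjusted p under 0.05, 1 point per pig, HR to the left of LR, with lines for means and bars for SD (n = 10 each). FBXW11 shows 9 HR pigs close together above 9.20 and 1 at 8.80, while FBXO4 spreads from 6.19 to 7.37 in HR and from 5.86 to 7.31 in LR pigs.

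The tie to the GC-rich background was common among the members. Of the 44 genes, 34 correlated with it at an adjusted p under 0.05 over 88 relations, 18 positively and 16 negatively, from r = -0.915 for FBXO3 to 0.855 for FBXW5. No share over all probe sets is at hand at that threshold. The median r was 0.102 over the members and 0.265 over all probe sets above the level. For FBXL7, FBXO9, FBXO6 and FBXL22, among the 34, the adjusted permutation p for rho was above 0.05 (0.15, 0.106, 0.0586 and 0.0561). Both ends held without the 2 farthest arrays, at -0.889 for FBXO3 and 0.772 for FBXW5. An r below -0.8 was seen in 6 members, or 13.6%, beside 9.76% of all probe sets above the level, and an r above 0.8 in 2 members, or 4.55%, beside 5.27%. The title number correlated with 22 of the 44 genes at an adjusted p under 0.05 for r, from -0.66 for FBXW5 to 0.842 for FBXW11. For this count, too, no share over all probe sets is at hand. Without the 2 farthest arrays these ends were -0.505 and 0.801. Not all of the 22 held up. For FBXO34, FBXO44 and FBXO31 r went from 0.536, -0.526 and -0.482 to 0.115, -0.103 and -0.147. Their adjusted permutation p for rho was 0.449, 0.322 and 0.258. It was also above 0.05 for FBXL4 (0.194), FBXL18 (0.122), FBXO41, FBXO48 and FBXW2 (0.0688 each). Without the 2 farthest arrays r of these genes was 0.37, -0.236, -0.4, 0.306 and 0.336. The r of the title number was above 0.5 for 27.3% of the members, beside 18.3% of all probe sets above the level. It was below -0.5 for 15.9% of the members, beside 18%.

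**Figure D4:**
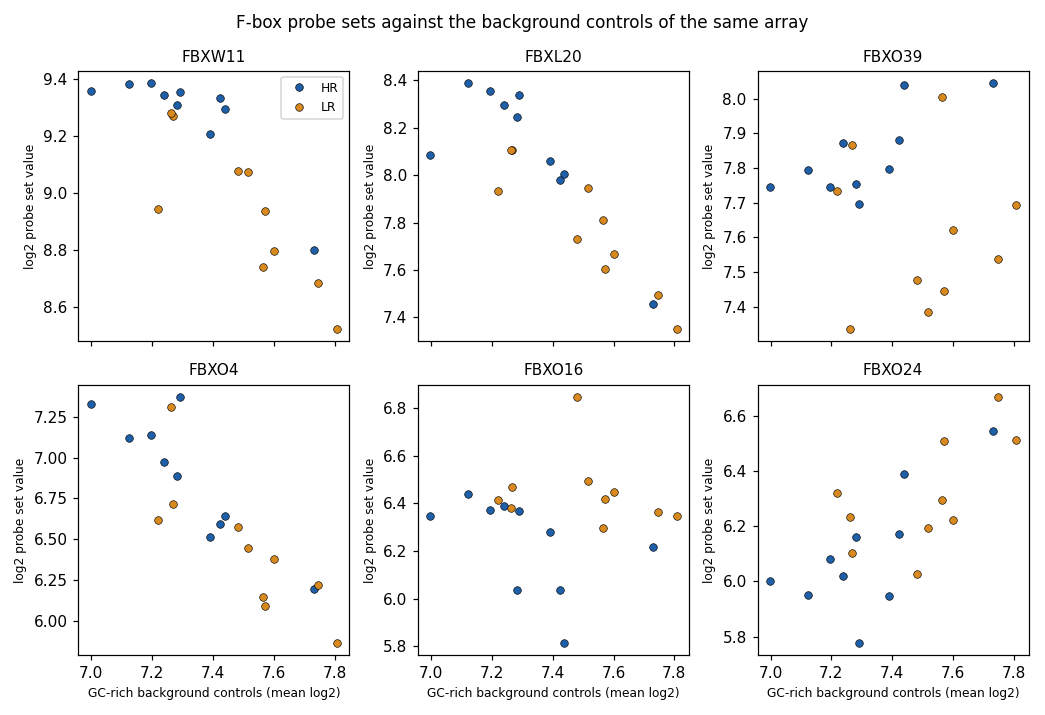
Log2 value of each of the 6 genes (y axes) against the mean log2 level of the GC-rich background controls of the same array (x axes), with HR and LR pigs in different colors. FBXW11, FBXL20 and FBXO4 fall as the background climbs (r = -0.85, -0.88 and -0.885), FBXO24 climbs with it (r = 0.734), and FBXO39 and FBXO16 show little relation (r = -0.0715 and -0.0189).

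Where a gene had several probe sets above the level, these mostly shared a direction. Of 21 such genes, 9 were higher and 7 lower in HR pigs with every probe set, and FBXO10, FBXO11, FBXO17, FBXO18 and FBXO22 had probe sets of both signs. The median correlation between probe sets of 1 gene had a median of 0.581 over the 21 genes, from -0.118 for FBXL2 to 0.948 for FBXO28. Probe sets of 1 gene share a target, so their number adds no replicate. At the level of probe sets, 14 of 80 had an unadjusted p under 0.05 (17.5%, beside 11.5% on the whole array), 11 of them higher and 3 lower, and 8 of the 11 belonged to FBXL20, FBXW11 and FBXO21.

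FBXO21, which marks the differentiation inhibitor EID1, stood out after its values were seen. All 7 of its probe sets were higher in HR pigs, by 0.14 to 0.27, and 3 had an unadjusted p under 0.05. The brightest averaged 10.07 ± 0.16 in HR and 9.88 ± 0.24 in LR pigs, a difference of 0.18 ± 0.09 that did not pass (limma, p = 0.0579, adjusted p = 0.445), and it reversed to -0.06 in the fit that carried the title number. FBXW7, which marks MYC, cyclin E and NOTCH, showed the other direction: all 5 probe sets were lower in HR pigs, by 0.08 to 0.14 on the log2 scale in size, with none under an unadjusted p of 0.05.

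FBXL2, the closest relative of FBXL20, gave a different picture for each probe set. The brightest differed by 0.04 ± 0.07 and the other by 0.42 ± 0.19 (limma, p = 0.0421, adjusted p = 0.417), and the pair did not follow each other over the arrays (r = -0.118). FBXO11, which marks BCL6, had probe sets whose correlations ran from -0.609 to 0.91. In FBXO10 the brightest probe set differed by 0.02 ± 0.06 and the second by -0.24 ± 0.10 (limma, p = 0.0244). For such genes the choice of probe set decides the value.

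**Figure D5:**
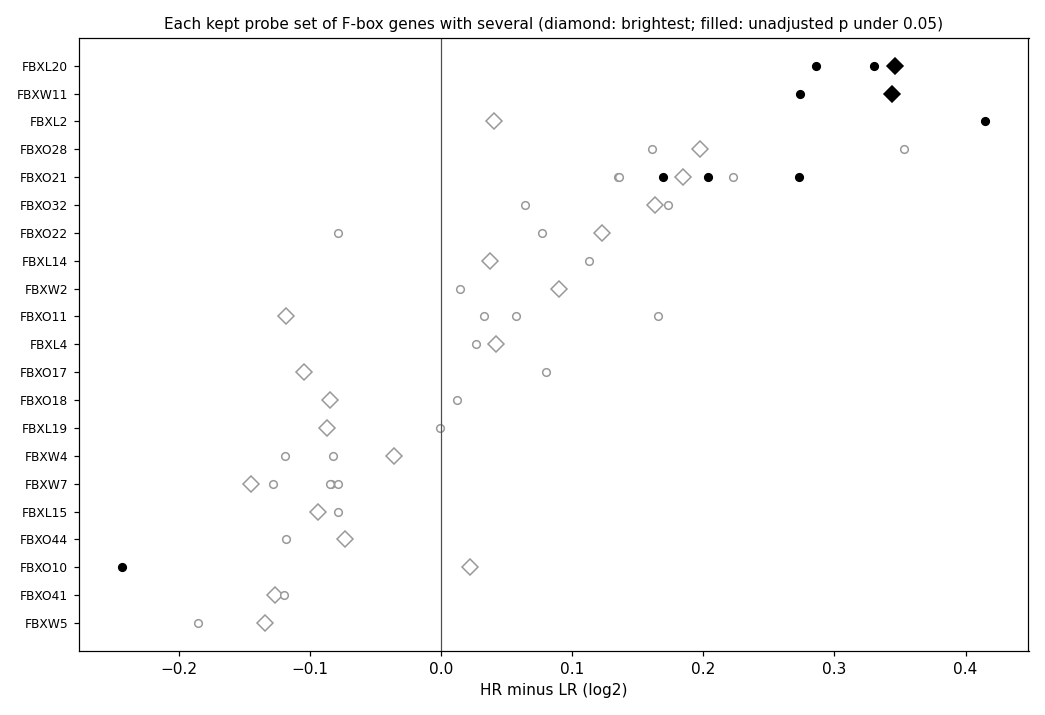
Difference between HR and LR pigs in log2 units for each probe set above the level of the 21 F-box genes with several, 1 gene per row, with a diamond for the brightest and filled marks for an unadjusted p under 0.05. The 7 FBXO21 probe sets all lie right of 0, between 0.14 and 0.27, and the 5 FBXW7 probe sets all lie left of it.

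Among F-box genes linked to synapses and neurons, 6 were measured, 2 higher and 4 lower in HR pigs, with a median difference of -0.06. Apart from FBXL20 and FBXL2, they were FBXL16, a gene known for expression in brain, at -0.08 ± 0.08, FBXO41, a neuronal F-box gene, at -0.13 ± 0.11, FBXO31, known from dendrite growth in rats, at -0.08 ± 0.11, and FBXW8, which works with CUL7, at -0.04 ± 0.11. None of those 4 had an unadjusted p under 0.05. FBXO45, a synaptic F-box gene, lay far below the level, with 3.01 ± 0.31 in HR and 2.69 ± 0.21 in LR pigs. Its difference of 0.32 ± 0.12 had an unadjusted p of 0.0102 in the fit over all probe sets (limma).

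The F-box genes linked to cell cycle and DNA replication held 6 measured members, 2 higher and 4 lower. Beside FBXO4 and FBXW7 they included FBXO18, a DNA helicase, at -0.08 ± 0.08 and FBXL6 at 0.03 ± 0.09. Of 8 measured genes linked to p53, BCL6 and other transcription factors, 6 were higher and 2 lower, with none called and a median of 0.07. FBXO42 and FBXO22, both linked to p53, differed by 0.10 ± 0.06 and 0.12 ± 0.10, and FBXL14, which marks the factor Snail, by 0.04 ± 0.07. FBXO3 and FBXO28 had larger differences with larger errors, 0.24 ± 0.13 (limma, p = 0.0780) and 0.20 ± 0.18.

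The F-box genes of iron, mitochondria and metabolism were evenly split, with 4 of 8 higher and 4 lower, a median of 0.0016 and none called. FBXL5, the iron sensor that marks the iron regulatory protein IRP2, differed by -0.01 ± 0.12, FBXL4, needed for mitochondrial DNA upkeep in humans, by 0.04 ± 0.07, and FBXO7, mutated in a form of parkinsonism, by -0.05 ± 0.08. FBXW5, which acts on TSC2, was at -0.13 ± 0.08. Of 4 measured genes known from muscle, 3 were higher and 1 lower. FBXO32, or atrogin-1, differed by 0.16 ± 0.13, FBXO25 by 0.18 ± 0.09 (limma, p = 0.0544) and FBXO30 by -0.09 ± 0.20.

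Sugar-binding F-box proteins recognize glycoproteins, and 3 of 5 genes listed under that heading were measured. Whether the product of each binds sugar was not tested. FBXO6 differed by 0.11 ± 0.10, FBXO44 by -0.07 ± 0.09 and FBXO17 by -0.10 ± 0.08, with none called. FBXO44 and FBXO6 are direct neighbors on chromosome 6 of Sscrofa 11.1, at 71747210 to 71754519 and 71755335 to 71774264, and their differences had opposite signs. Of 9 genes listed for germ cells 6 were on the array and 3 above the level, FBXO39, FBXO16 and FBXO24. All 3 were among the 6 called, 1 higher and 2 lower, beside 10.5% of the named genes, and the list was drawn up with earlier results known. The 3 measured genes of the clock list were FBXW11, FBXL15 at -0.09 ± 0.07 and FBXL8 at -0.08 ± 0.08.

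The rest of the SCF machinery, with the partners and substrates of F-box proteins, was measured for 76 genes. At an unadjusted p under 0.05, 8 of them were called, or 10.5%, 6 higher and 2 lower in HR pigs, beside 11.5% of all probe sets above the level, and none passed after adjustment (limma). In the scaffold and adaptor list 9 of 11 measured genes were higher, beside 44.4% of all named genes, 2 were called higher, beside 7.1%, and the median difference was 0.13. CUL1, the cullin of SCF ligases, differed by 0.38 ± 0.21 (p = 0.0758), SKP1 by 0.17 ± 0.12 and RBX1 by -0.05 ± 0.08. The 2 called were DCUN1D5 at 0.26 ± 0.11 (p = 0.0346) and DCUN1D1 at 0.32 ± 0.16 (p = 0.0496), which encode helpers of cullin neddylation.

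Genes of neddylation and of the COP9 signalosome, the complex that takes NEDD8 off cullins again, had a median difference of -0.04 over 13 genes. COPS4 ran between 7.41 and 8.37 in HR pigs, with a median of 8.07, against 8.09 to 8.67 with a median of 8.39 in LR pigs. Its difference of -0.37 ± 0.12 (limma, p = 0.00353, adjusted p = 0.292) and that of COPS8, -0.17 ± 0.08 (p = 0.0325), were the 2 called of the 13, beside 3.35% of the named genes called lower. The other 7 measured subunits had no unadjusted p under 0.05: COPS3, COPS7A, GPS1 and COPS6 were lower, at -0.10 to -0.03, and COPS5, the subunit that cuts, COPS7B and COPS2 higher, at 0.04 to 0.17.

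Of 9 genes that charge SCF ligases with ubiquitin, UBE2D1 differed by 0.21 ± 0.07 (limma, p = 0.0119) and UBE2G1 by 0.17 ± 0.08 (p = 0.0447), and the median was 0.02. These were the 2 called, beside 7.1% of the named genes called higher. The other cullins held no called gene among 6, with CUL4B at 0.32 ± 0.18 (p = 0.0964) and CUL3 at 0.27 ± 0.17 (p = 0.135). Among 6 F-box genes under other names, SKP2 differed by 0.29 ± 0.12 (p = 0.0274). CDKN1B encodes p27, the cell cycle inhibitor that SKP2 marks, and was the 1 gene called of 31 partners and substrates, beside the same 7.1%.

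CDKN1B ran between 9.17 and 10.24 in HR pigs, with a median of 9.98, against 8.81 to 9.98 with a median of 9.34 in LR pigs. Means were 9.92 ± 0.32 in HR and 9.39 ± 0.43 in LR pigs, a difference of 0.53 ± 0.16 (limma, p = 0.00291, adjusted p = 0.292). SKP2 and CDKN1B were thus both higher in HR pigs at the mRNA level, where protein breakdown is not measured. RIMS1, which encodes the FBXL20 target RIM1, differed by 0.12 ± 0.11 (p = 0.302), CTNNB1, the beta-catenin gene, by 0.10 ± 0.08 (p = 0.218) and NFKBIA by -0.12 ± 0.12 (p = 0.305). PER1 and PER2 were at -0.05 ± 0.10 and -0.05 ± 0.07.

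All 52 genes were found by symbol in the pig annotation of Sscrofa 11.1. They lay on 15 chromosomes, with FBXW5 on an unplaced scaffold and only FBXL20 and FBXO39 on chromosome 12. The array's own table carries no coordinates, and the genome build behind the probe design is not named by the sources at hand.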

How the data were processed

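Hippocampus RNA of 10 HR and 10 LR pigs was measured on 20 arrays. The authors made the deposited log2 values with robust multichip averaging (RMA) in Affymetrix Expression Console, and the submitters' processing notes name GCOS 1.1.1; no raw scans were used here, and the detection filter of the study was not applied. The table holds 47845 probe sets. The 123 controls were left out, and of 47722 others the 23861 with a mean over the 20 arrays above the median (5.53) were kept. Genes were named from the platform annotation, in which 26426 probe sets have 1 symbol and none several.

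HR minus LR was fitted with limma 3.58.1 in R 4.3.3 (lmFit and eBayes, two-sided, no covariate), and p-values were adjusted by Benjamini-Hochberg over all kept probe sets. Array measures and correlations were tested with 100000 permutations in scipy 1.17.1. The fit was tested on simulated data. The limma p-values set the difference between groups against the spread among pigs within groups, and the permutation p-values come from shuffling the arrays. The number of samples, 20, limits the precision. No depth applies to arrays.

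Genes described in full were FBXL20, FBXO39, those with an unadjusted p under 0.05 and those at the edge of the level; from the pathway lists, up to 4 genes with the smallest p and CUL1, SKP1, RBX1, SKP2, BTRC and RIMS1. Others are named as members or chosen after their values were seen, FBXO21 among them, and so are the other COP9 subunits, CTNNB1, NFKBIA, PER1 and PER2. The members, lists and tests were chosen with earlier results of these data known. Alternatives were other filters, 4 covariates, array weights, a rank test, median centring, the mean of a gene's probe sets, leaving out each pig and leaving out the 2 extreme arrays of the first principal component, which held 48% of the variance. No sequence is printed.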

Additional observations from a re-analysis of the deposited data

Results flagged for a closer look

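In 8 of 92 groups of 10 values tested (the brightest probe sets of the 44 genes and the other 2 FBXL20 probe sets above the level, HR and LR apart), the highest or lowest pig stood apart from the next by more of the group's range than Dixon's test allows, which chance passes in about 5% of groups. Of these, 4 fell on HR replicate 1, which was lowest of the HR pigs for FBXL20 at 7.457 (next 7.978), FBXW11 at 8.799 (next 9.206), FBXO21 at 9.627 (next 10.04) and FBXO32 at 8.203 (next 8.648). Without this array the difference was 0.42 for FBXL20 and 0.40 for FBXW11 (limma, adjusted p = 0.0520 and 0.0453), and 10 F-box genes had an unadjusted p under 0.05, beside 6 with it. No share over the whole array is at hand for that fit. HR replicate 1 also carried the highest GC-rich background of the HR arrays, 7.73, and its part in these values was not tested further. HR replicate 5 was lowest of the HR pigs for FBXL14 at 8.282 and highest for FBXO30 at 8.587. LR replicate 7 was lowest of the LR pigs for FBXL19 at 6.859, and LR replicate 8 was highest for FBXO16 at 6.848.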

How the results depend on the processing

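The median difference over the F-box genes, -0.0023 at first, ran between -0.016 and 0.021 in the 31 other settings, so its sign changed. Each move was smaller than 0.036, the SD within groups of the mean level of the 44 genes. The fit without a filter held 52 genes and that with the stricter filter 42. FBXO39 and FBXO16 kept their direction and an unadjusted p under 0.05 in all settings that were run for them. The number of F-box genes with an unadjusted p under 0.05, 6 in the fit without covariates, was 10 with the first principal component as a covariate and 11 with limma's array weights, and 5 to 10 with 1 pig left out (10 without HR replicate 1 or LR replicate 7). Those higher in HR pigs, 4 at first, were 2 with the title number, 7 with the choroid plexus mean and 7 with array weights, and 4 to 8 with 1 pig left out (8 without HR replicate 1 or LR replicate 7, 7 without LR replicate 8 or LR replicate 10). The 0 genes past an adjusted p of 0.05 became 3 with array weights (FBXL20, FBXW11 and FBXO4) and 0 to 1 with 1 pig left out (FBXW11 without HR replicate 1). For none of these other fits is a share over the whole array at hand. With the title number 4 genes were called, FBXO39, FBXO34, FBXO6 and FBXO16, of which 2 were called without it. The difference of FBXL20 was 0.091 with the title number as a covariate and 0.13 with the GC-rich background, both with an unadjusted p above 0.05, and 0.30 to 0.42 with 1 pig left out. Its dimmest probe set above the level was at 0.14 and 0.16 in the same 2 fits and 0.28 to 0.38 with 1 pig left out, and its second at 0.26 to 0.32. FBXO21 reversed to -0.061 with the title number, which nearly separates the groups. With the title number FBXW11, FBXO4 and FBXO24 also had an unadjusted p above 0.05, at 0.11, 0.07 and -0.07, as FBXO4 and FBXO24 did with the GC-rich background, at 0.12 and -0.07, and FBXO24 with the first principal component, at -0.12. Without the 2 extreme arrays of that component FBXO4 and FBXO24 did so too, at 0.33 and -0.17. The SCF lists held 8 called genes, but 2 with the title number, 15 with the choroid plexus mean, 16 with array weights, 5 by an exact Wilcoxon test and 4 once the 2 extreme arrays of that component were left out, and 4 to 11 with 1 pig left out (4 without HR replicate 5, HR replicate 6, LR replicate 1 or LR replicate 3, 5 without HR replicate 7, HR replicate 8 or LR replicate 4). The cause of these shifts was not tested. HR and LR were different pigs, and the sources give no litter or sampling day by which to pair them, so no paired analysis was run. The replicate numbers used here, set in accession order, only name the arrays.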

Other observations

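Below the level lay 8 F-box genes, FBXL17, FBXO36, FBXO40, FBXO15, FBXL13, FBXO43, FBXO5 and FBXO45, with mean log2 values of their brightest probe sets between 2.85 and 5.12. Without a filter on low values, 8 of all 52 genes had an unadjusted p under 0.05, and the 2 added were FBXO45 and FBXL17. No share over the whole array is at hand for that fit either. FBXL17 averaged 5.31 ± 0.36 in HR and 4.93 ± 0.44 in LR pigs, a difference of 0.38 ± 0.17 (limma over all probe sets, p = 0.0318).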
